A study of Bos taurus with 24 samples.

Results

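The comparison set the 5 follicles with the highest marker level of an interferon response against the 5 with the lowest, out of 16 ovarian follicles of cattle in all. The follicles were chosen by the mean level of 3 interferon-induced genes, ISG15, MX1 and IFI6, measured on the same arrays as every other gene. The high follicles were J980, 861, 33, C35 and C26, and the low follicles were C10, 27, C12, 26 and 46. The other 6 follicles, C32, H893, C13, 8, C22 and 31, lay between them and entered only where stated. Each follicle was the largest of 1 heifer, 8 to 12 mm in diameter, and gave the total RNA of bulk tissue, 5 µg per hybridisation. All groups share that description, since the labels give identifiers and no treatment, stage, infection or age. Two-colour arrays (24, with 2 follicles on each and 3 arrays for each follicle) gave log ratios, and the difference between high and low follicles was then described over the remaining genes.

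Type I interferons are secreted proteins that cells make on sensing viral or other foreign nucleic acid, and interferon tau is made by the early conceptus of ruminants. They bind a receptor of the chains IFNAR1 and IFNAR2, and the signal passes to response elements in the promoters of interferon-induced genes. The products of these genes block viral replication, mark proteins with ISG15, and raise antigen presentation. Interferon gamma has a receptor of its own and acts on an overlapping set of genes, MHC class II among them.

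A level is the fitted log2 ratio of a follicle to the mean of the 16 follicles, so 0 is the mean and no level says how abundant an RNA is. The base is not stated in the sources used here and was taken as log2, with natural logs not excluded. The ratio was likewise taken as Cy5 over Cy3. If it is the inverse, the high and low follicles trade places and every difference given here keeps its sign and size, since the ranking turns with it. Array values numbered 16094 to 17028, the median standard error (SE) of a follicle level from array error was 0.14, and the number of arrays limits the precision. Both groups were labelled with Cy5 in 7 of 15 hybridisations. Of the 24 arrays, 7 paired a high with a low follicle directly. None of the 7 held C26, and several follicles recur among them. They also enter the fitted levels, so they are not a separate check of these. Follicle J980 stood apart: the SD of its gene levels was 0.33, against at most 0.23 in the other high follicles and 0.19 to 0.24 in the low ones. List medians, and differences of genes under the naming rule, that moved by over 1.5 times without its level are given both ways. Other list members and separate features are given with J980 only, and some of these differences change in size or sign without it. Because levels are relative, the label of a whole follicle could not be checked by the abundance of its markers.

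The marker levels chose the groups and are given as a description without a test. ISG15, a ubiquitin-like protein, was at 3.11 in J980, 2.09 in 861, 1.58 in 33, 1.32 in C35 and 0.88 in C26. Its mean was 1.80 ± 0.85 (SD, n = 5) in the high and -1.16 ± 0.16 in the low follicles. MX1, an antiviral GTPase, had means of 1.79 ± 0.72 and -1.21 ± 0.24. IFI6, a mitochondrial protein, had means of 1.64 ± 0.69 and -1.04 ± 0.26. The mean of the 3 markers was 2.59 in J980, the highest follicle, and 0.94 in C26, the last of the high group, against -0.12 in C32, the first outside it. No such gap bounded the low group, where C10 at -0.90 was next to follicle 31 at -0.84. The low follicles were thus close to each other and to the follicles between, while the high follicles were spread over more than 1 unit.

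**Figure D1:**
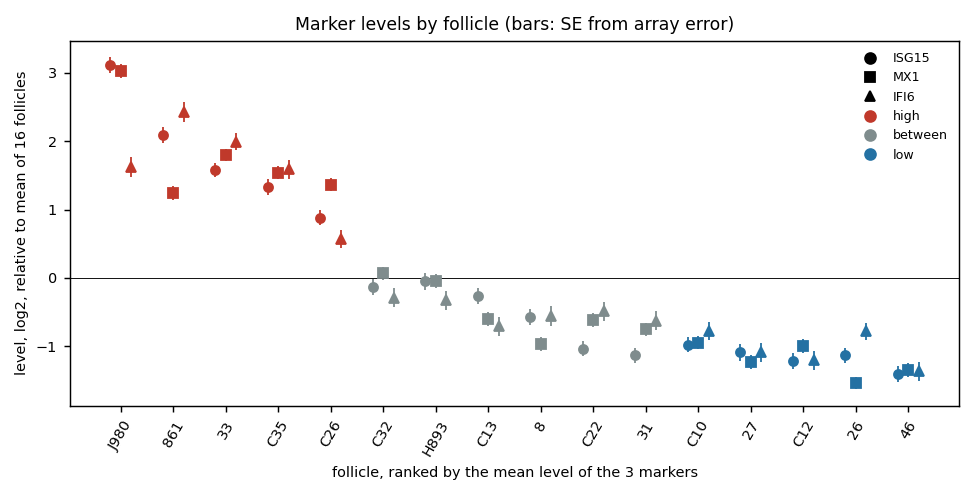
Levels of ISG15 (circles), MX1 (squares) and IFI6 (triangles) on the log2 scale in the 16 follicles, ordered by the mean of the 3; bars are the SE from array error. The 5 high follicles have mean levels of 0.94 to 2.59, and the other 11 lie at -0.12 or lower.

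Of 9028 genes tested beside the markers, 1 passed in the comparison of high with low follicles (0.0111%), and it was higher in the high follicles (limma on follicle levels, Benjamini-Hochberg adjustment at 0.05). No gene passed as lower (0%). At an unadjusted p under 0.05 there were 242 genes (2.68%), 156 of them higher (1.73%) and 86 lower (0.953%). That share is below the 0.05 that the threshold itself gives where no gene differs. In 40 genes (0.443%) the 5 high and the 5 low follicles did not overlap, 30 of them higher in the high follicles (0.332%) and 10 lower (0.111%). Lack of overlap is a description without a test, and its share was not compared with that of random groups. A gene named for lack of overlap is thus not shown to differ. Most genes hardly differed: 66.9% had a difference within 0.1 of 0, the median was -0.0034 and 48.6% were positive. The larger differences leaned one way, with 41 genes at 0.5 or above and 19 at -0.5 or below. The ranking came from the same RNA, so a call is an association with the ranking in these follicles, and interferon-induced genes share their pathway with the markers by definition.

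**Figure D2:**
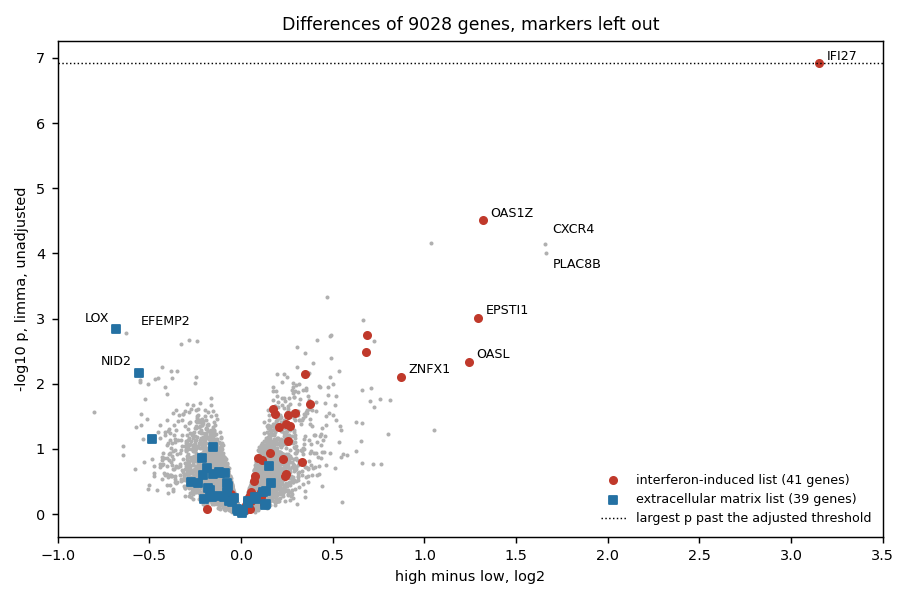
High minus low difference on the log2 scale against the unadjusted p of limma, as -log10, for 9028 genes, with the interferon-induced list (red, 41 genes) and the extracellular matrix list (blue, 39 genes) marked. IFI27 at 3.15 is the 1 gene at the adjusted threshold, and the next genes by p are OAS1Z, MANSC1, CXCR4 and PLAC8B.

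The gene that passed was IFI27, which encodes a small hydrophobic protein of the same family as IFI6. Its level was 1.73 in J980, 2.31 in 861, 1.98 in 33, 2.16 in C35 and 1.08 in C26. In the low follicles it was -1.54 in C10, -1.07 in 27, -1.93 in C12, -0.82 in 26 and -1.14 in 46. The lowest high follicle was thus well above the highest low one, and of the follicles between, C32 at 0.76 came nearest to the high group while C13 at -1.45 was as low as the low group. The means were 1.85 ± 0.48 and -1.30 ± 0.44 (SD, n = 5 each), a difference of 3.15 with an SE of 0.26 (limma, adjusted p = 0.00109). All 7 direct arrays, none of which held C26, had more IFI27 in the high follicle, with log2 ratios of 2.18 to 3.78. One array feature measured the gene, with values on 22 arrays. Its call was kept in 18 of 19 other settings and lost with 8 follicles a side, where the difference was 2.11 (limma, adjusted p = 0.9998). Ranking by IFI6 alone chose the same follicles, and turning every sign repeats the main fit, so neither is a separate check.

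Next by p was OAS1Z, an oligoadenylate synthetase, of the enzymes whose product activates the RNA-degrading RNase L. It was at 1.34 in J980, 0.61 in 861, 1.25 in 33, 0.76 in C35 and 0.34 in C26, and at -0.61 in C10, -0.08 in 27, -0.62 in C12, -0.46 in 26 and -0.53 in 46. The groups did not overlap, and the 6 follicles between lay at -0.01 or lower, near the low group. The difference was 1.32 (SE 0.19) and did not pass (limma, adjusted p = 0.141). The direct arrays all had the high follicle above, by 0.94 to 2.07. Against all 11 other follicles, a comparison added after the data were seen, OAS1Z passed with a difference of 1.25 (limma, adjusted p = 0.00104). OAS1X, another gene of the family, was at -0.40 to 0.28 in the high follicles with a difference of 0.02, and their features may share sequence.

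EPSTI1, an interferon-induced protein of epithelium and stroma, was at 1.18 in J980, 0.50 in 861, 0.43 in 33, 0.84 in C35 and 0.69 in C26. Low follicles were more scattered, at 0.03 in C10, -0.56 in 27, -1.55 in C12, 0.07 in 26 and -0.81 in 46. No low follicle reached a high one, and the difference of 1.29 (SE 0.29) did not pass (limma, adjusted p = 0.999). GBP5, a guanylate-binding GTPase, was highest in C26 at 0.94 and lowest of the high follicles in 861 at 0.16, while low follicles lay between -0.62 and 0.10. Its order within the high group was thus not that of the markers, and 1 of its 7 direct arrays, J980 over 27, was negative at -0.13. The GBP5 difference was 0.69 (SE 0.17; limma, adjusted p = 0.999).

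**Figure D3:**
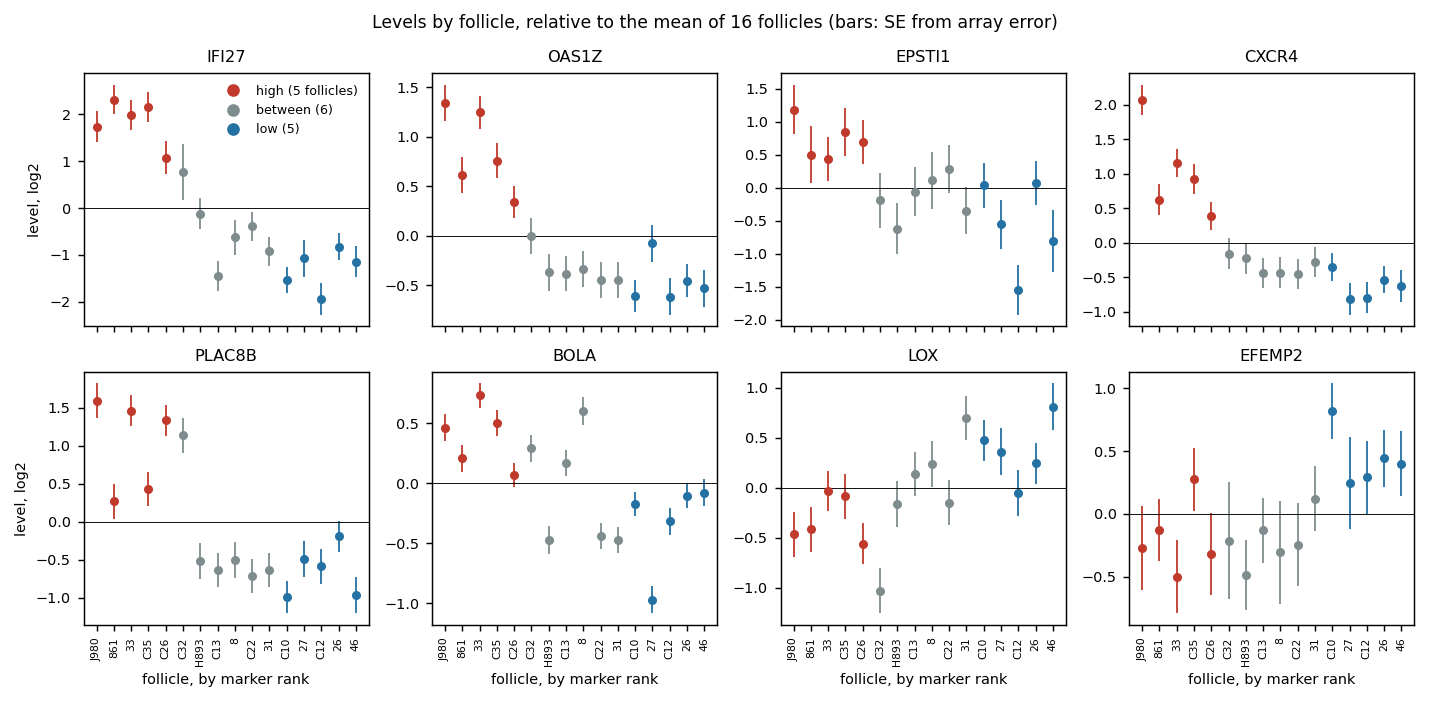
Level on the log2 scale of 8 genes in the 16 follicles, ordered by marker rank, with the SE from array error as bars; red is high, grey between and blue low. IFI27, OAS1Z, EPSTI1, CXCR4, PLAC8B and BOLA have no low follicle at or above a high one, while LOX and EFEMP2 overlap.

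The interferon-induced list as a whole leaned to the high follicles. Of 89 listed genes 41 were measured beside the markers, and 1 of the 41 passed. In 37 of them the difference was positive (90.2%, against 48.6% of all genes), and the median was 0.17 against -0.0034. At an unadjusted p under 0.05, 16 members (39%) were higher and 0 lower, against 1.73% and 0.953% of all genes. In 5 members, IFI27, OAS1Z, EPSTI1, GBP5 and ZNFX1, the high follicles were above all low ones, against 0.332% of all genes. In GBP5 and ZNFX1 the nearest high and low follicles lay closer than the SE of a level. In 7 members the difference was at least 0.5, whereas 14 were within 0.1 of 0, so the lean came from part of the list. The mean level over the 41 members was 0.15 to 0.28 in the high follicles and -0.23 to -0.01 in the low ones, and C32 was between them at 0.06. The median was positive in all 54 other settings, at 0.13 to 0.22, and was 0.18 without J980. Settings that alter only the variance, or that choose the same follicles, leave it unchanged and are not separate checks.

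More members of the list are described by their values, since they were picked out after these were seen. OASL, a relative of the oligoadenylate synthetases without their enzyme activity, had the next largest difference, 1.24. It was at 1.14 in J980, 0.81 in 861, 0.62 in 33, 0.05 in C35 and 0.42 in C26, and C10 at 0.28 and 26 at 0.14 of the low follicles exceeded C35. The SE of these levels from array error was 0.85 to 2.01, so their order lies within array error. ZNFX1, an RNA helicase and sensor, was at 1.67 in J980, 0.39 in 861, 0.75 in 33, 0.16 in C35 and 0.26 in C26. Its highest low follicle was C10 at 0.15, so the groups were apart by a small margin. UBE2L6, the conjugating enzyme that attaches ISG15 to proteins, differed by 0.68, from 0.95 in J980 to 0.09 in C35 among the high follicles, with C10 the highest low one at 0.26. UBA7, the activating enzyme of the same ISG15 pathway, differed by only 0.17, and USP18, the protease that removes ISG15, ranged from -0.75 in J980 to 0.79 in 33 with a difference of 0.13.

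Some members differed less, or had large levels that did not follow the ranking. XAF1 and WARS1 differed by 0.35 and 0.37 with overlapping groups. IFIT2 and IFIT5, which bind foreign RNA, differed by 0.23 and 0.24 with overlapping groups. EIF2AK2, the kinase PKR that halts translation, was at 0.84 in 33 and 0.51 in C26, but at -0.25 in J980 and -0.30 in 861. HERC6, a ubiquitin ligase of the HERC family, had the widest range of all members, from -2.10 in J980 to 1.63 in 861 within the high group and from -1.93 in 26 to 2.30 in C10 within the low group. Its difference was -0.18, and both groups held its extremes. Of the 41 members, 22 were highest in J980 among the 5 high follicles, yet the list level of J980, 0.24, was below the 0.28 of follicle 33.

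The genes that sense nucleic acid and pass on the interferon signal did not lean in the same way. Of 26 measured members of that list 0 passed, and the median was 0.02, or 0.01 without J980. A positive difference was found in 16 (61.5%, against 48.6% of all genes). The receptor chains IFNAR1 and IFNAR2 differed by 0.02 and -0.07, and IFNGR1 and IFNGR2 of the interferon gamma receptor by 0.00 and 0.04. DHX58, an RNA sensor that is itself interferon-induced, differed by 0.05. IRF7, the regulator that amplifies interferon transcription, had the smallest p, at 0.53 in J980, 0.19 in 861, 0.20 in 33, 0.20 in C35 and 0.07 in C26 and between -0.40 and 0.14 in the low follicles. Its difference was 0.32 (SE 0.11; limma, adjusted p = 0.999), and its features disagreed: 1 differed by 0.87 with no overlap and the other by -0.11.

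In 2 of 13 measured class I genes, BOLA and PSME1, the groups did not overlap, against 0.332% of all genes. Neither passed the threshold. BOLA, as the annotation names a class I heavy chain of the bovine MHC, was at 0.46 in J980, 0.21 in 861, 0.73 in 33, 0.50 in C35 and 0.07 in C26. The low follicles were at -0.17 in C10, -0.97 in 27, -0.32 in C12, -0.11 in 26 and -0.08 in 46, so no low follicle reached a high one, while follicle 8, ranked between, was at 0.60. The difference was 0.72 (SE 0.18; limma, adjusted p = 0.999), but in each BOLA feature alone the groups overlapped. Transcripts of other class I genes could bind to these features as well. PSME1, a subunit of the proteasome activator that favours antigenic peptides, differed by 0.31 without overlap, though J980 at 0.01 and 27 at -0.01 nearly met. TAP1, a chain of the transporter that loads those peptides, differed by -0.15, and the immunoproteasome subunits PSMB8, PSMB9 and PSMB10 by 0.13, 0.06 and 0.20. B2M, the light chain of class I molecules, had features that differed by -0.13 and 0.62. Of 13 class I genes 11 were positive (84.6%, against 48.6% of all genes), with a median of 0.06, or 0.12 without J980.

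Class II genes, which professional antigen-presenting cells express, had the higher median, 0.29. Of 10 members 9 were positive (90%, against 48.6% of all genes) and 0 passed the threshold. BOLA-DRA, the alpha chain of a class II molecule, was at 0.58 in J980, -0.18 in 861, 0.31 in 33, 0.09 in C35 and 1.23 in C26, and between -0.83 and 0.02 in the low follicles. C26 stood above the other high follicles, 861 was within the low group, and C32, ranked between, was level with C26 at 1.24. The difference was 0.70 (SE 0.25; limma, adjusted p = 0.999). CIITA, the regulator of class II transcription, differed by 0.17.

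Leukocyte markers were tallied beside these results, because whole follicles contain blood and resident immune cells. In bulk RNA, fewer cells of a type and less RNA per cell cannot be told apart. Of 33 measured leukocyte markers 24 were positive (72.7%, against 48.6% of all genes), and the median was 0.05. Their mean level ran from -0.09 to 0.25 in the high and from -0.13 to 0.05 in the low follicles, with overlap. PTPRC, the pan-leukocyte marker CD45, differed by 0.21, while CD3E of T cells, CD14 of monocytes and S100A8 of neutrophils differed by -0.04, 0.02 and -0.02. At an unadjusted p under 0.05, 5 of the 33 were higher and 1 lower, against 1.73% and 0.953% of all genes. Immunoglobulin chains of plasma cells had a median difference of 0.44 over 5 measured members, with list levels of -0.12 in 861 to 0.84 in C26 among the high and -0.45 to 0.33 among the low follicles. Red cell markers differed by a median of 0.11 over 4 members and endothelial markers by -0.01 over 15, or -0.04 without J980. The part of leukocytes in the interferon-induced and class II differences was not tested, and C26 and C32 had the highest levels of the leukocyte, immunoglobulin and class II lists.

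Within the leukocyte list CXCR4, the receptor of the chemokine CXCL12, had the largest difference. It was at 2.06 in J980, 0.62 in 861, 1.16 in 33, 0.93 in C35 and 0.38 in C26. The low follicles lay at -0.36 in C10, -0.82 in 27, -0.80 in C12, -0.54 in 26 and -0.63 in 46, and the follicles between at -0.46 to -0.16. The 5 high follicles were thus above all 11 others, in the same order as their marker ranks except that 861 lay below 33 and C35. The difference was 1.66 (SE 0.27) and did not pass with all 5 high follicles (limma, adjusted p = 0.160). Without the level of J980 it was 1.40 and passed (limma, adjusted p = 0.0181), and without J980 and its 3 arrays it was 1.36 and did not (limma, adjusted p = 0.0523). The 7 direct arrays gave 0.998 to 2.78. CD53, a tetraspanin of leukocytes, differed by 0.52 with overlap, from 0.68 in 33 to -0.30 in 861 among the high follicles, and CD2 of T cells, named after its value was seen, by -0.80.

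PLAC8B was at 1.59 in J980, 0.27 in 861, 1.46 in 33, 0.43 in C35 and 1.33 in C26, and at -0.99 in C10, -0.49 in 27, -0.58 in C12, -0.19 in 26 and -0.97 in 46. High follicles fell into a higher trio and a lower pair, all above the low group, and C32 was with the trio at 1.14. The difference was 1.66 (SE 0.28; limma, adjusted p = 0.181). PLSCR2, of the phospholipid scramblase family, differed by 0.66 and ELK3, an ETS transcription factor, by 0.49, both without overlap and neither past the threshold. The margin of PLSCR2 was small, with 861 at -0.08 and C12 at -0.09. AGTR2, the type 2 receptor of angiotensin II, differed by 0.41 without overlap, by a margin within the SE of a level. Its highest level, 1.53, was in C22, ranked between.

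A comparison of the high follicles with all 11 others, rather than the 5 lowest, was added after the data were seen. In it 4 genes passed (limma, 0.0443%): OAS1Z, IFI27, CXCR4 and MANSC1. In 7 genes (0.0775%) every high follicle was above all 11 others, namely these 4 with PIGT, ZNFX1 and EPSTI1, and in 0 genes below. With the spread of all 16 follicles in the high against low fit, the same 4 passed (0.0443%). Without the level of J980, 3 genes passed, CXCR4, IFI27 and MANSC1, and without J980 and its 3 arrays, IFI27 and MANSC1 did. The fit without its arrays was likewise added after the data were seen.

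Several of these genes were measured by more than 1 feature, and the features did not always move together. MANSC1, a membrane protein with a MANSC domain, was at 1.30 in J980, 0.48 in 861, 0.74 in 33, 0.44 in C35 and 0.35 in C26, against -0.53 to -0.21 in the low follicles. The difference of 1.03 (SE 0.16; limma, adjusted p = 0.160) was the mean of 1 feature at 2.09, without overlap, and 1 at -0.02. PIGT, a subunit of the enzyme that attaches GPI anchors, had features at -0.20, 0.28 and 1.33. RPL31, a ribosomal protein, had features at -0.0069, -0.04 and 1.5. The third RPL31 feature was at 1.60 in J980, 0.85 in 861, 0.69 in 33, 0.93 in C35 and 0.65 in C26 and passed among features (limma, adjusted p = 0.0278), but the other two gave no such separation. The BOLA features differed by 0.72 and 0.73, but in each of them the groups overlapped, and only their mean kept the groups apart.

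**Figure D4:**
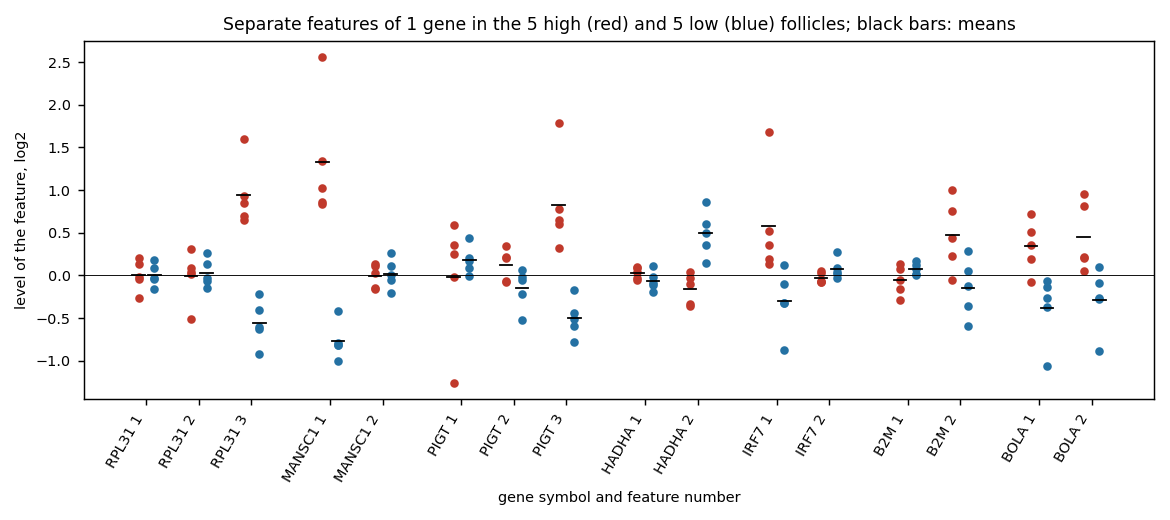
Level on the log2 scale of each separate feature of 7 genes in the 5 high (red) and 5 low (blue) follicles, with means as black bars. Feature 3 of RPL31, feature 1 of MANSC1 and feature 3 of PIGT separate the groups by 1.5, 2.09 and 1.33. The other features of RPL31 and MANSC1 differ by close to 0, while those of PIGT differ in opposite directions.

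In the fit of 16355 features, 6 passed (0.0367%), all of them higher in the high follicles, and 66 (0.404%) had no overlap between the groups. IFI27 and the RPL31 feature were the named ones. The feature of smallest p had no gene symbol: it was at 2.17 in J980, 2.23 in 861, 2.11 in 33, 1.94 in C35 and 1.01 in C26, and at -1.73 to -1.17 in the low follicles. Its difference of 3.38 (SE 0.22; limma, adjusted p = 2.86e-04) was larger than that of IFI27. A second feature without a symbol differed by 2.17 (limma, adjusted p = 0.00104). The last pair, each listed with 2 symbols and so left unnamed, differed by 1.42 and 1.71. The gene-level count therefore leaves out 4 features that followed the ranking. Marker features were removed by their single symbol, so these 4 were not screened and may measure the markers themselves.

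No gene passed as lower in the high follicles, and the 12 of smallest p in that direction were of mixed function. HADHA, an enzyme of fatty acid oxidation, DCAF7, a scaffold protein, B3GAT3, an enzyme of proteoglycan linkage, and NID2, a basement membrane linker, had no overlap, at -0.28, -0.24, -0.43 and -0.55. In HADHA, B3GAT3 and NID2 the nearest high and low follicles lay closer than the SE of a level. For B3GAT3 they were C35 at 0.06 and C12 at 0.12, where the SE of a level reached 0.43. The features of HADHA differed by 0.09 and -0.65. LOX, the lysyl oxidase that cross-links collagen and elastin, was at -0.47 in J980, -0.42 in 861, -0.03 in 33, -0.09 in C35 and -0.56 in C26, and at 0.47 in C10, 0.36 in 27, -0.05 in C12, 0.24 in 26 and 0.81 in 46. C12 overlapped the high group, and C32 was the lowest of all at -1.03. The difference was -0.68 (SE 0.16; limma, adjusted p = 0.999), and 6 of 7 direct arrays were negative. EFEMP2, a fibulin needed for elastic fibres, differed by -0.63, and C35 at 0.28 overlapped the low follicles. In NID2, J980 was at -0.75 and the other high follicles at -0.25 to -0.09. AEBP1, DKK3 and P3H4 differed by -0.33, -0.38 and -0.38, and RPL4, ETV5 and REXO2 by -0.45, -0.35 and -0.25, all with overlap.

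The matrix list held 39 measured genes, of which 12 were positive (30.8%, against 48.6% of all genes). Its median was -0.08, or -0.05 without J980, and COL1A2, a chain of type I collagen, differed by -0.49. Its list level was -0.15 in J980 and -0.20 in 861, but 0.12 in 33, 0.09 in C35 and 0.15 in C26, inside the low range of -0.07 to 0.17. The 5 high follicles thus did not share 1 matrix level. Smooth muscle and stroma markers were positive in 1 of 12 (8.33%), with a median of -0.11 that became -0.04 without J980. Ribosomal protein genes were positive in 15 of 61 (24.6%), with a median of -0.06, or -0.03 without J980.

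**Figure D5:**
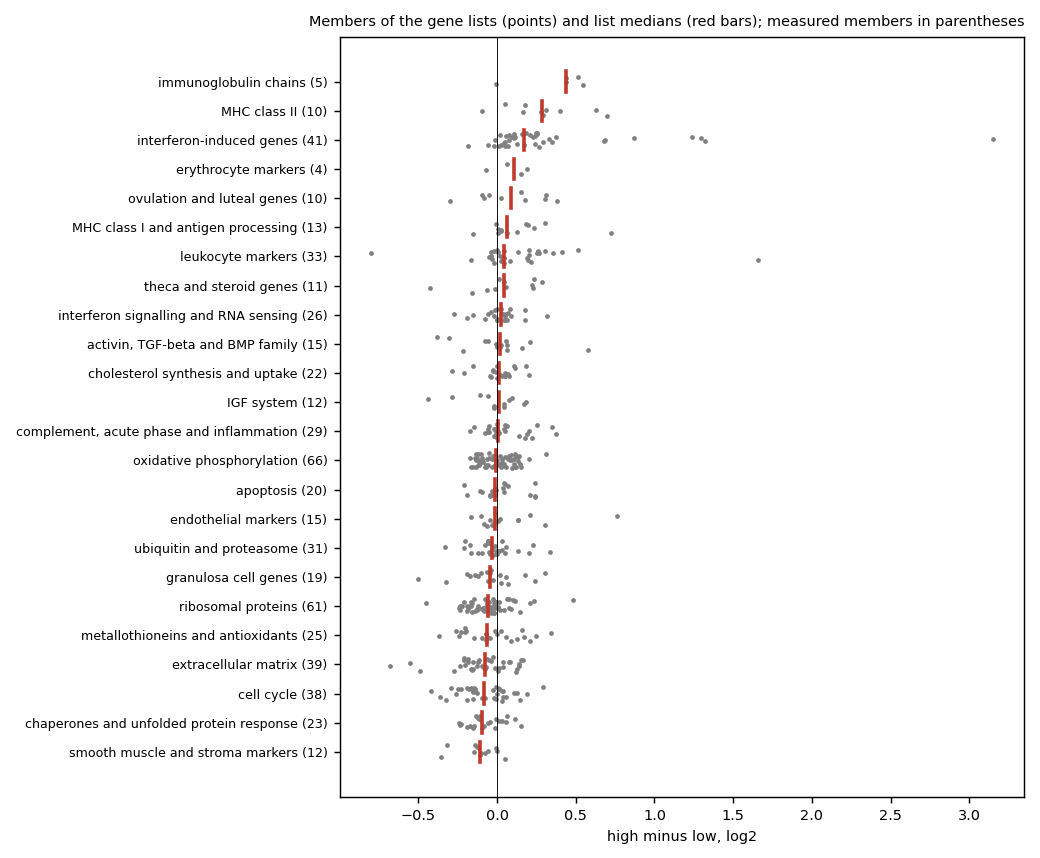
High minus low difference on the log2 scale of the measured members of 24 gene lists (points), ordered by list median (red bars), with the number of measured members in parentheses. The interferon-induced median is 0.17, those of immunoglobulin chains and MHC class II are 0.44 and 0.29 over few genes, and the other medians lie between -0.11 and 0.11.

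No measured gene of the granulosa list or the theca and steroid list passed the threshold. Several differences were smaller than their SE, so a difference was not resolved rather than shown to be absent. INHBA, the activin and inhibin beta A chain of granulosa cells, was at -2.69 in J980, 1.04 in 861, -0.30 in 33, 0.47 in C35 and -0.24 in C26, and at -0.55 to 0.80 in the low follicles. High follicles thus held both its extremes. The difference of -0.51 had an SE of 0.59, and without the level of J980 it was 0.08. FST, the activin-binding protein follistatin, was at -2.05 in J980 and 1.11 in 861, with a difference of -0.12 (SE 0.49) that turned to 0.35 without the level of J980. CYP19A1, the aromatase that makes oestradiol, differed by 0.02 (SE 0.07), or 0.03 without J980, with levels of -0.09 to 0.07 in the high and -0.16 to 0.17 in the low follicles. FSHR, the receptor of FSH, differed by -0.05 (SE 0.15), or -0.10 without J980.

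The granulosa list had 7 of 19 positive (36.8%, against 48.6% of all genes) and a median of -0.04. Without J980 the median turned to 0.03, with 11 of 19 positive. CYP11A1, the side-chain cleavage enzyme that starts steroid synthesis, differed by -0.43 (SE 0.29), or -0.20 without J980, with J980 lowest at -1.06 and C12 highest at 0.95. HSD3B1, which makes progesterone, differed by -0.16, or -0.02 without J980, and the theca and steroid list had a median of 0.04, or 0.0071 without it. TNFAIP6, a hyaluronan-binding protein of the ovulatory follicle, ranged from -2.40 in J980 to 1.84 in 861 within the high group and differed by 0.31 (SE 0.80), or 0.98 without J980. Cell cycle genes had a median of -0.08 over 38 members that became -0.01 without J980, and chaperones one of -0.10 that became -0.01.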

How the data were processed

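Per the deposited table, each value is a log ratio of the array's Cy5 and Cy3 channels, here read as log2. How the authors corrected background and normalized each array is not stated in the sources available. The largest absolute value, 6.32, exceeds the 4.82 that log10 ratios of 16-bit intensities allow. Unused columns of per-sample values numbered 0. Of 17418 features, 13605 had 1 gene symbol in the platform annotation, and those with several (829) or none (2984) stayed unnamed. By gene ID 13575 matched the RefSeq table of assembly ARS-UCD2.0. No build was named, so no coordinates are given.

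Arrays were median-centred and features averaged by symbol. Genes on at least 20 arrays were fitted with follicle effects and a dye term, and follicle levels were compared with limma 3.58.1 in R 4.3.3, two-sided, at 0.05. Levels of follicles that share an array have linked errors, which this test ignores. The fit was tested on simulated data with the groups fixed and levels drawn independently for each gene. That test does not cover the choice of groups by values of the same arrays. Each follicle is 1 heifer, so the spread is between animals.

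The members, the 24 gene lists (579 of 852 genes measured), the alternatives and the naming rule were chosen with earlier results of these data known. The rule named the markers, 12 genes of smallest p per direction, 3 members of smallest p per list, and 15 genes of interferon and follicle biology where measured. Other list members were named after their values were seen. A planned search of promoters for interferon response elements was not run, since promoter sequences were not used here. Plots used matplotlib 3.10.9 (Python 3.11.15).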

Additional observations from a re-analysis of the deposited data

Results flagged for a closer look

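Levels of the 97 named genes beside the markers were examined for 1 follicle far from the other 4 of its group by Dixon's test, in 194 sets of 5 levels, and 10 were far. Chance marks about 1 in 20 sets. Of the 10, 6 were in the high and 4 in the low follicles, and 3 were J980.

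In J980, IRF7 was at 0.534 (other high follicles 0.0745 to 0.200), NID2 at -0.752 (-0.253 to -0.0924) and HSPA9, a mitochondrial chaperone, at -0.494 (0.0125 to 0.108). In C26, AGTR2 was at 0.457 and AEBP1 at 0.131, both above the other high follicles. In 861, PTTG1, the securin of mitosis, was at 0.126 where the other high follicles were negative. Among the low follicles, BOLA was at -0.970 and ELK3 at -0.561 in follicle 27, both below the rest. PLSCR2 was at -0.0909 in C12 (others -0.404 to -0.320), and UBA1, a ubiquitin-activating enzyme, at 0.345 in follicle 46 (others -0.0551 to -0.0070).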

How the results depend on the processing

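IFI27 was the 1 gene past the threshold with the 4 highest against the 4 lowest follicles, with ranking by ISG15, MX1 or IFI6 alone, without centring, without the dye term, with any estimable number of arrays, with ordinary or robust variances, without J980 and its arrays and the rest ranked again, and with every sign turned. The sign turn and the ranking by IFI6 alone repeat the main fit, so neither is a separate check. The count was 0 with 8 follicles a side (231 genes at an unadjusted p under 0.05) and 0 with genes on all 24 arrays (206), which leaves IFI27 untested. It was 2 with 1 feature per gene, 3 with arrays scaled to one median absolute deviation, 4 with all 16 follicles in 3 groups, 6 with the marker mean over 16 follicles, and 100 with array error, which compares these RNA samples and not animals. Alternatives added after the data were seen gave 4 (the high against the 11 others), 2 (without J980 and its arrays, groups kept) and 6 (features).

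The 40 genes without overlap became 117 with 4 a side, 0 with 8 a side, 24 by MX1 alone and 67 without J980 and ranked again. The added alternatives gave 7 against the 11 others, 108 without J980 and groups kept, and 66 features. The cause was not tested, except that smaller groups overlap less often by construction.

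Leaving out 1 follicle or array gave 0 to 3 calls and 18 to 145 genes without overlap. The 0 came without the array of 27 and C32, where IFI27 could not be fitted. Without J980 there were 3 calls, and without C26 there were 2, IFI27 and OAS1Z. Without 1 follicle, 63 to 145 genes had no overlap; without the array of C26 and 33 there were 18, and without that of C10 and 26 there were 20. IFI27 passed in all 33 such fits that held it, at an adjusted p of 2.91e-04 to 0.0204. No paired analysis was possible because each animal gave 1 follicle and the follicles carry no replicate numbers shared between groups. Signal over background is unknown.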
